A study of Drosophila melanogaster with 12 samples.

Results

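The transcripts described here are those of 5 Drosophila genes known as activity-regulated or immediate-early genes: stripe (sr), Hr38, CG14186, kayak (kay) and Jun-related antigen (Jra). All probe sets whose single annotated gene symbol was among these names were taken, which gave 6 probe sets of the 13966 tested, or 5 genes of 10844. Each gene had 1 probe set except kay, which had 2. Probe sets were taken by gene name alone, but the 5 genes themselves were chosen with earlier results of these data known. The question was whether these transcripts followed the warm phase of a temperature cycle, the step from 18 to 25 °C at 12 h, or neither.

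The study hybridised RNA of y w; tim01 fly heads to 12 Affymetrix Drosophila Genome 1 arrays that sampled 6 hours of 2 successive days, without repeats. All flies carried the tim01 mutation, which removes the TIMELESS clock protein, so that no molecular clock was expected to run on either day and no wild-type fly is among the arrays analysed here. They were kept in darkness throughout, at 25 °C up to early pupal stages, and then in a thermocycle until eclosion and for several further days as adults. On the thermocycle day (CA, cold/ambient) they spent 12 h at 18 °C, the cryophase, and then 12 h at 25 °C, the thermophase, and on the following day (AA, ambient/ambient) they stayed at 25 °C. The CA cold phase held the arrays of 2, 6 and 10 h, and the CA warm phase held those of 14, 18 and 22 h. The AA subjective cold and subjective warm phases held the same hours of the constant day, and each array measured RNA of pooled heads. The 14-h array of CA was taken 2 h after the step to 25 °C. Since the 3 arrays of a group differ in hour, their spread mixes change within the phase with noise, and the sources used here do not state whether the flies of different arrays were raised apart.

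Immediate-early genes are transcribed within minutes of a stimulus, without a need for new protein synthesis. Firing neurons raise calcium and cAMP, which act through kinases and CREB on such genes, and many of their products are transcription factors that switch on later genes. In fly brains sr and Hr38 are used as markers of recently active neurons, much as Egr1 and the Nr4a genes are used in mammals. The proteins of kay and Jra, the fly Fos and Jun, pair to form AP-1, which also serves as the end point of the Jun kinase (JNK) pathway in stress, wound closure and synaptic growth. Constitutive transcription of these genes in tissues other than neurons is also known, so a signal from whole heads is not a measure of firing.

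Values are on the log2 scale of RMA, run by the authors, which sets all arrays to nearly the same distribution. Array medians were 5.18 to 5.22, and pairs of arrays correlated at 0.980 to 0.997. The CA 18-h array stood apart from the rest, with a mean correlation of 0.984 with the others, where each other array had at least 0.991, and with a spike-in mean of 7.91 against 8.65 or more elsewhere. Transcripts of gut and male accessory gland, which mark pieces of other body parts, were highest on the CA 6-h, AA 2-h and AA 6-h arrays. Of the markers of neurons, photoreceptors, glia and fat body, 5 of 9, 5 of 10, 6 of 7 and 6 of 6 were measured. All of these were above the 20th percentile on most arrays. The neuron marker para fell below it on AA 6 h, AA 18 h and AA 22 h. In RNA of whole heads, fewer cells of a type and less RNA per cell cannot be told apart.

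None of the 5 genes passed the test in any comparison (limma, Benjamini-Hochberg adjusted over 13966 probe sets, threshold 0.05). Their transcripts differed in how far they varied. CG14186 spanned 1.01 on the log2 scale over the 12 arrays, kay 0.89, Jra 0.49 and sr 0.47, whereas Hr38 spanned 0.27 at a level not above background. The highest array differed among sr, CG14186 and Jra, as did the lowest, but CA 18 h was both the lowest of sr and the highest of Jra. The highest array of kay was that of CG14186.

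**Figure D1:**
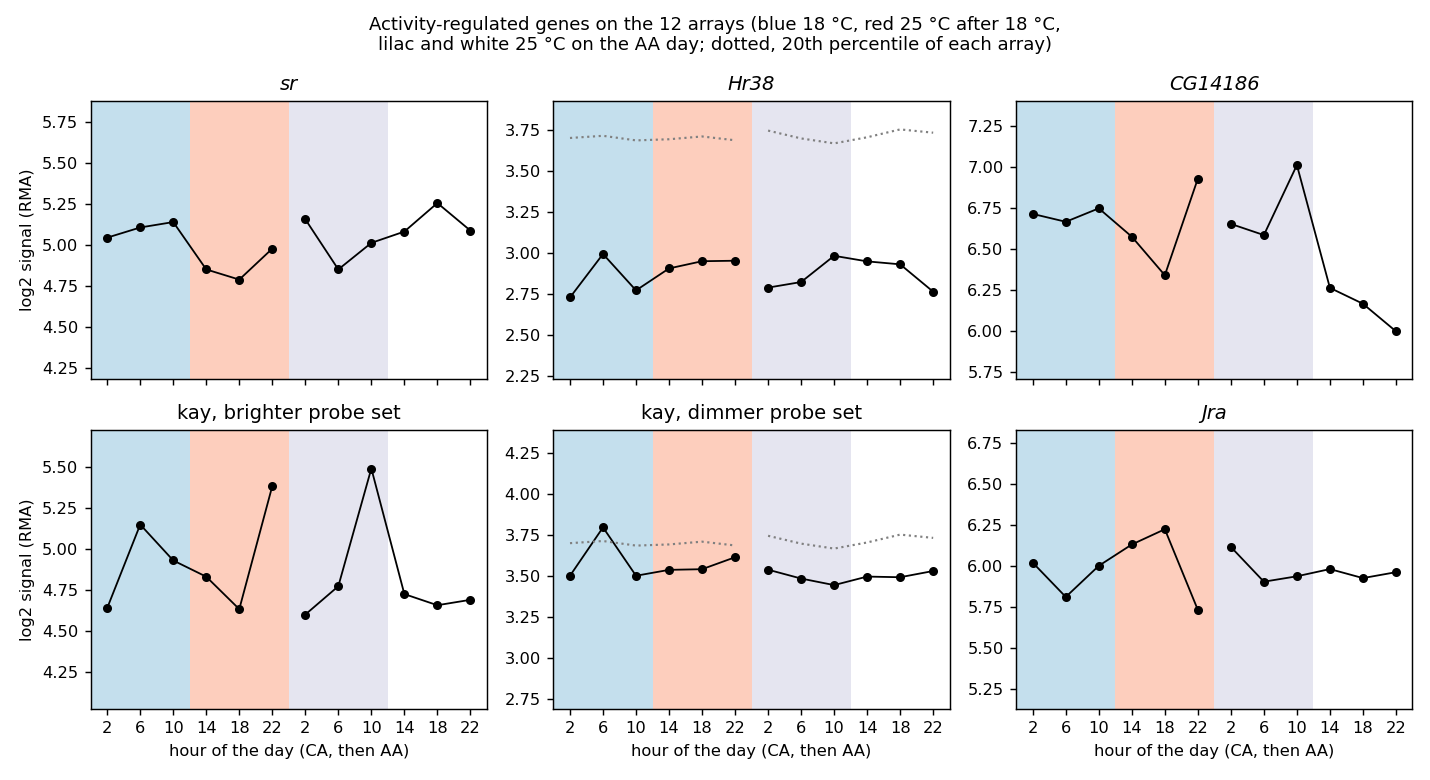
Log2 RMA signal (vertical axis, the same span in every panel) of the 6 probe sets against the hour of the day, for CA and then AA, with 1 array per point. Blue marks 18 °C, red the CA warm phase, lilac and white the subjective cold and warm phases of AA at 25 °C, and the dotted line the 20th percentile of each array, above which Hr38 was found on 0 of 12 arrays.

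The sr gene encodes a zinc-finger transcription factor of the Egr family, which is also the selector of tendon cells in the fly. It read 5.05, 5.11 and 5.14 in the cryophase (2, 6 and 10 h), followed by 4.85, 4.79 and 4.98 in the thermophase (14, 18 and 22 h). The 18 °C values all lay above the 25 °C values of the same day, so sr stood on the opposite side from a transcript that follows warmth. Its cold minus warm difference was 0.22 (SE 0.09, 95% confidence interval 0.03 to 0.42, limma adjusted p = 0.578), a ratio of 1.17. The lowest sr value, 4.79 at 18 h, lies on the array that stood apart, and without that array the difference was 0.18. In this comparison 0.00716% of probe sets passed, and in 5.55% the 3 cold arrays lay above the 3 warm arrays without overlap, so the separation of sr was one that many transcripts shared.

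On the AA day sr read 5.16, 4.85 and 5.02 at 2, 6 and 10 h and 5.08, 5.26 and 5.09 at 14, 18 and 22 h. The subjective phases overlapped, and the difference of -0.14 (SE 0.09, limma adjusted p = 0.9997) had the other sign. Phase differences of the 2 days differed by 0.36 (SE 0.13, interval 0.09 to 0.63), with a limma adjusted p of 0.583, in a comparison where 7.9% of probe sets had an unadjusted p under 0.05. Between the warm phases the sr arrays did not overlap, at 4.87 ± 0.10 in CA and 5.14 ± 0.10 in AA (SD, n = 3), a difference of -0.27 (SE 0.09, limma adjusted p = 0.245). The widest gap at a matched hour, -0.47 at 18 h, again involved the CA array that stood apart, without which the warm-phase difference was -0.23. Such separation in either direction was found for 19.7% of probe sets, and 0.0143% passed. At matched hours of the cold phase, 18 °C and 25 °C gave 5.10 ± 0.05 and 5.01 ± 0.15 (SD, n = 3), a difference of 0.09 (interval -0.10 to 0.28, limma adjusted p = 0.9999). In that comparison 0 probe sets passed in limma and 3.54% had an unadjusted p under 0.05. The 18 °C values of sr were inside the range of its AA values, 4.85 to 5.26. Tendon cell markers, of which 8 of 9 were measured, had summed linear signals of 777 to 892 in the CA cold phase, 794 to 882 in the CA warm phase, 775 to 845 in the AA subjective cold and 767 to 829 in the AA subjective warm phase, and their part in the sr differences was not tested.

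Hr38 is the single fly member of the Nr4a family of nuclear receptors and the most widely used fly marker of recent firing. Its probe set read 2.73, 2.99, 2.77, 2.90, 2.95 and 2.95 at the 6 times of CA and 2.79, 2.82, 2.98, 2.95, 2.93 and 2.76 at those of AA. These values lay below the 20th percentile on 12 of 12 arrays, between percentiles 6.66 and 10.4 of their arrays, and near the mean of 8 mouse and yeast control probe sets, 2.89 to 3.11. The Hr38 transcript was therefore not above background on any array, no fold is given, and whether it changed at a lower level was not detectable with this probe set.

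CG14186 belongs to a set of genes found to rise after artificial firing of fly neurons, and its product has no name in the annotation used here. It had the highest signal of the 5 genes' probe sets, between percentiles 69.8 and 86.9 of the arrays. It read 6.71, 6.67 and 6.75 in the CA cold phase, followed by 6.57, 6.34 and 6.93 in the CA warm phase. The last of these, at 22 h, was above every 18 °C value and the other two were below, so the phases overlapped, with a difference of 0.09 (SE 0.14, interval -0.21 to 0.40, limma adjusted p = 0.914).

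On the constant day CG14186 read 6.65, 6.58 and 7.01 at 2, 6 and 10 h and 6.26, 6.17 and 5.997 at 14, 18 and 22 h. The 3 subjective warm values were the lowest of all 12 arrays, although the temperature was 25 °C at all 6 hours. Group means were 6.75 ± 0.23 and 6.14 ± 0.13 (SD, n = 3), a difference of 0.61 (SE 0.14, interval 0.31 to 0.91), with the 14th smallest p of the 13966 probe sets at 0.000748 and a limma adjusted p of 0.623. In this comparison 0 probe sets passed in limma, 4.55% had an unadjusted p under 0.05, and in 3.73% the subjective cold arrays lay above the subjective warm arrays without overlap. No other probe set of the 5 genes separated the phases of AA.

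Set against AA at the same hours, CG14186 was 0.06, 0.08 and -0.26 higher in CA at 2, 6 and 10 h, and 0.31, 0.17 and 0.93 higher at 14, 18 and 22 h. The cold phases overlapped, with a difference of -0.04 (interval -0.34 to 0.26, limma adjusted p = 0.9999). The warm phases did not overlap, at a difference of 0.47 (SE 0.14, interval 0.17 to 0.77), but the limma adjusted p was 0.213. Here 19.7% of all probe sets did not overlap in either direction, and 14.6% had an unadjusted p under 0.05. The contrast between days, CA phase difference minus AA phase difference, was -0.51 (SE 0.20, limma adjusted p = 0.600).

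Both AP-1 subunits were measured above background. The brighter kay probe set read 4.64, 5.15 and 4.93 in the CA cold phase, 4.83, 4.63 and 5.39 in the CA warm phase, 4.60, 4.77 and 5.49 in the AA subjective cold phase and 4.73, 4.66 and 4.69 in the AA subjective warm phase. It was highest on the AA 10-h and CA 22-h arrays, which differ in day and phase, and in both days the phases overlapped. Its CA difference was -0.04 (SE 0.22, interval -0.51 to 0.43, limma adjusted p = 0.980) and its AA difference 0.26 (SE 0.22, limma adjusted p = 0.9997).

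The dimmer kay probe set read 3.44 to 3.8 and was above the 20th percentile on 1 of 12 arrays, CA 6 h, where it was highest. On the AA 10-h and CA 22-h arrays, where the brighter probe set was highest, the dimmer one read 3.44 and 3.61. At this level no order is read from it, and the kay values rest on 1 probe set.

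Jra read 6.02, 5.81 and 6.0 in the CA cold phase and 6.13, 6.22 and 5.73 in the CA warm phase. Its highest array, CA 18 h, and its lowest, CA 22 h, were neighbours within the warm phase. On the AA day it stayed between 5.90 and 6.12, with 5.96 ± 0.03 (SD, n = 3) in the subjective warm phase. The CA difference was -0.09 (SE 0.11, interval -0.33 to 0.16, limma adjusted p = 0.907), the AA difference 0.03 (limma adjusted p = 0.9997) and the contrast between days -0.11 (limma adjusted p = 0.887). The CA 18-h maximum of Jra lies on the array that stood apart from the others. Without that array the CA difference was 0.013, so its sign rested on that array.

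**Figure D2:**
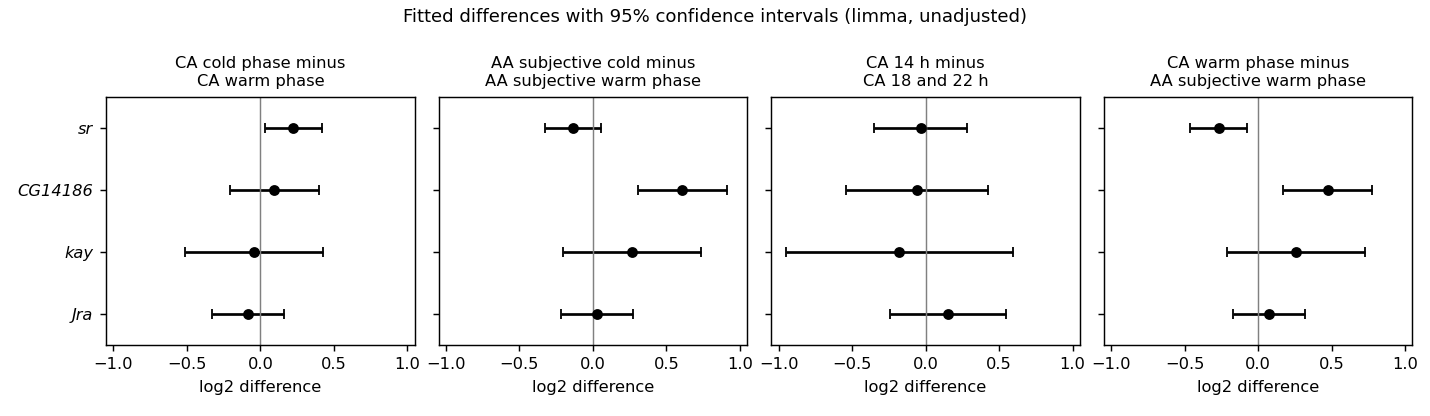
Fitted log2 differences (horizontal axis) of sr, CG14186, kay (brighter probe set) and Jra in 4 comparisons, points with 95% confidence intervals from limma, not adjusted for the number of probe sets. The intervals leave out 0 for sr in the CA phases and for CG14186 in the AA phases, and for both genes between the warm phases, on opposite sides.

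A step response would place the 14-h array of CA, the first after the change to 25 °C, apart from the arrays around it. From CA 10 h to CA 14 h the change was -0.29 for sr, -0.17 for CG14186, -0.10 for kay and 0.13 for Jra. Over all probe sets the absolute change between these arrays had a median of 0.10, a 90th percentile of 0.26 and a 95th percentile of 0.33. The sr change, downwards, lay between the 90th and the 95th percentile, and those of CG14186, kay and Jra lay between the median and the 90th percentile.

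Ranked from the highest of the 12 arrays, CA 14 h held rank 2 for Jra, 5 for kay, 8 for CG14186 and 10.5 for sr, a tie. It was the highest array for 4.7% of all probe sets and for none of these genes. Against the later warm phase, CA 14 h differed by -0.03 (interval -0.35 to 0.28) for sr and by -0.06 (interval -0.54 to 0.43) for CG14186. The same difference was -0.18 (interval -0.95 to 0.59) for kay and 0.15 (interval -0.24 to 0.55) for Jra. The limma adjusted p values were 0.962 to 0.992, 0 probe sets passed in limma and 5.18% had an unadjusted p under 0.05. With 1 array, changes inside these intervals could not be told from no change. The intervals are not adjusted for the number of probe sets, so larger changes may also have been missed. A response that ended within 2 h of the step lies outside the sampled times.

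The direction of all 4 step values turned when the CA 22-h array was left out, to 0.06 for sr, 0.24 for CG14186, 0.20 for kay and -0.09 for Jra. In that setting CA 14 h faces CA 18 h alone, the array that stood apart from the rest. On the AA day, with no step, the change from 10 to 14 h was -0.75 for CG14186 and -0.77 for kay, and AA 14 h differed from AA 18 and 22 h by 0.18 for CG14186, 0.05 for kay, 0.04 for Jra and -0.09 for sr (limma adjusted p = 0.9998 for each, with 0.00716% of probe sets past the threshold and 1.6% at an unadjusted p under 0.05). The 14-h contrasts of the days differed by -0.24 to 0.12 among the 4 genes (limma adjusted p = 0.9998 for each), in a comparison where 0 probe sets passed in limma and 2.8% had an unadjusted p under 0.05. The later warm phase set against the cold phase, without the 14-h array, differed by -0.21 (SE 0.11) for sr, -0.07 (SE 0.16) for CG14186, 0.10 (SE 0.26) for kay and 0.03 (SE 0.13) for Jra, with limma adjusted p values of 0.495 to 0.956 where 11.1% of probe sets had an unadjusted p under 0.05. After the step down to 18 °C at the start of CA, the 2-h array differed from those of 6 and 10 h by -0.40 (interval -1.06 to 0.26) for kay and by -0.08 to 0.11 for the other genes, all with a limma adjusted p of 0.9997, where 0 probe sets passed in limma and 3.35% had an unadjusted p under 0.05.

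Daily periodicity was read as the share of the variance of the 6 times that falls on the 24-h Fourier component, against all 60 orders of the times. On the CA day it was 83.2% for sr, with a fitted peak at 5.79 h in the middle of the cryophase, against a median of 38.9% over all probe sets. The exact permutation p was 0.100, and the smallest that 60 orders can give is 0.0167, which 1.68% of probe sets reached. For the other genes above background the CA share was 42.1% (Jra), 29.4% (CG14186) and 6.83% (kay). On the AA day CG14186 had 74.3%, with a fitted peak at 7.72 h and an exact permutation p of 0.183, sr 64.3% with its peak at 19.2 h, kay 51.2% and Jra 23.4%, where 1.51% of probe sets reached the smallest p. The fitted peaks of sr lay in the cold phase of CA and the subjective warm phase of AA, and no probe set of the array passed after adjustment (smallest adjusted p = 0.903 in CA and 0.914 in AA).

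The genes above background were compared with each other over the 12 arrays, in 6 pairs. CG14186 and kay were high and low on much the same arrays, with Pearson's r = 0.71 (permutation p = 0.00982, 0.0589 adjusted over the pairs) and Spearman's rho = 0.58 (permutation p = 0.0525, adjusted 0.157). Within the CA day r was 0.73 and within the AA day 0.72. Without AA 18 h and AA 22 h, the 2 arrays farthest from the median of CG14186, it was 0.76. Each of these values kept CA 22 h, AA 10 h or both, where both genes were highest, and r without both arrays was not tested. The pair of kay and Jra ran in opposite directions, with r = -0.63 (permutation p = 0.0293, adjusted 0.0878) and rho = -0.60 (permutation p = 0.0434, adjusted 0.157). That relation was -0.90 on the CA day, -0.35 on the AA day and -0.56 without the 2 arrays farthest from the median of kay. No pair passed after adjustment.

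sr correlated with none of the others beyond -0.31 (permutation p = 0.330 for Jra, adjusted 0.568), and its correlations with CG14186, kay and Jra each had another sign on the CA day than on the AA day. Transcripts that run with kay and CG14186 were common on these arrays. Among 2965 probe sets of other genes with a range of at least 0.5 and mostly above the 20th percentile, 11.1% had r above 0.7 with kay and 9.14% with CG14186. The same share was 3.61% for Jra, and 0.472% for sr among 2966.

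Closest to kay were CG3257 (r = 0.98), Tace (0.97), which encodes a membrane metalloprotease, and Rox8 (0.96), an RNA-binding protein. Closest to CG14186 were mbt (0.96), a p21-activated kinase, ytr (0.95) and Flacc (0.95), a subunit of the complex that methylates adenosine in mRNA. All 6 of these, like kay and CG14186, had their highest value on the AA 10-h array. Jra ran closest to Cerk, which encodes a ceramide kinase (0.87), AstC-R1, a receptor of the neuropeptide allatostatin C (0.87), and CG12746 (0.87). The closest to sr were weaker, Pat1 at 0.80, Septin2 at 0.80 and klar, a protein that positions nuclei, at 0.78. No likeness is given for Hr38, which was not above background.

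Among the neuron markers, elav and nSyb were high on the arrays where kay and CG14186 were highest, but not only there, and the other markers varied less. The mean deviation of the 5 markers from their own 12-array means was 0.27 on CA 22 h and 0.27 on AA 10 h, the 2 arrays where kay and CG14186 were highest, and -0.26 and -0.24 on AA 18 h and AA 22 h, where CG14186 was lowest. Medians of the 5 deviations on CA 22 h and AA 10 h were smaller, 0.098 and 0.18. On the other arrays the mean was between -0.19 and 0.06. The pan-neuronal RNA-binding protein gene elav read 6.16 on CA 22 h and 6.46 on AA 10 h, against 5.18 on both AA 18 h and AA 22 h. On the same arrays the synaptic vesicle gene nSyb read 7.47 and 7.09 against 6.04 and 6.09. However, elav also read 6.19 on CA 10 h, where kay was at 4.93 and CG14186 at 6.75. Likewise nSyb read 7.19 on CA 18 h, where kay was at 4.63 and CG14186 at 6.34. The sodium channel gene para read 3.77 and 3.76 on CA 22 h and AA 10 h, below its mean of 3.82. These values were near the 20th percentiles of the same arrays, 3.69 and 3.67. There brp, of the presynaptic active zone, read 5.63 and 5.56 (mean 5.53) and the synaptic vesicle chaperone gene Csp 7.36 and 7.49 (mean 7.32). Over the 5 measured markers the summed linear signal ranged from 357 to 396 in the CA cold phase, 365 to 477 in the CA warm phase, 336 to 465 in the AA subjective cold and 318 to 369 in the AA subjective warm phase. The part of these markers in the kay and CG14186 values was not tested.

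**Figure D3:**
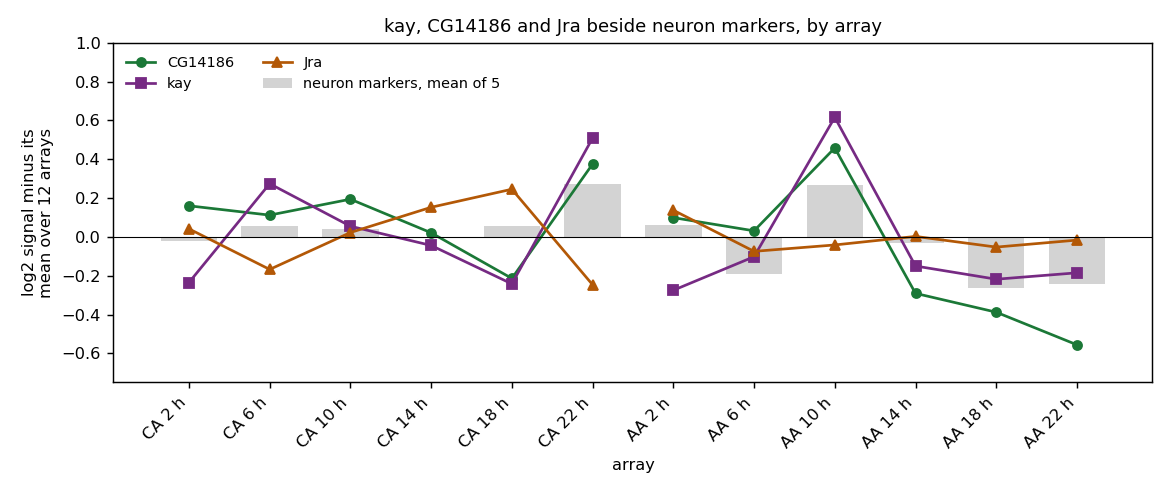
Log2 signal minus its mean over the 12 arrays (vertical axis) for CG14186, kay (brighter probe set) and Jra, by array, with gray bars for the mean deviation of 5 neuron markers. The bars reach 0.27 on CA 22 h and AA 10 h, the arrays where kay and CG14186 were highest, where the medians of the same 5 markers were 0.098 and 0.18.

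Other genes of the same pathways were read from lists of gene names, and named genes were also fitted without the CA 18-h array, a setting chosen after seeing the data. Without it 4.64% of probe sets had an unadjusted p under 0.05 in the CA phases and 4.24% at the step, and 0 passed in limma in either. Of 10 further genes that rise after neuronal firing in flies, 10 were measured and 0 passed in limma in the CA phases, in the AA phases or at the 14-h step of CA. Their median CA cold minus warm difference was 0.05, against -0.01 over all probe sets, and 1 of 10 had an unadjusted p under 0.05, against 8.15%. That gene was CG13868, at 8.98, 8.50 and 8.75 in the CA cold phase and 8.04, 7.63 and 8.37 in the CA warm phase. Its cold values lay above the warm ones without overlap, as in 5.55% of probe sets, and the difference was 0.73 (SE 0.17, limma adjusted p = 0.277). Without CA 18 h it was 0.54. Next by p was CG14024, with -0.13 (SE 0.10), or -0.061 without CA 18 h. At the step, Atf3, a stress-induced partner of Jun, differed by -0.38 (SE 0.12, limma adjusted p = 0.925) and cbt, a zinc-finger factor, by 0.16 (SE 0.17), or 0.31 without CA 18 h.

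Of 13 genes of the JNK pathway and AP-1 partners, 12 were measured and 0 passed in limma in any of these comparisons. In the CA phases 3 of 12 had an unadjusted p under 0.05, 2 higher and 1 lower in the cold, against 8.15%, and at the step 3 of 12, 1 higher and 2 lower at 14 h, against 5.18%. Without the CA 18-h array 1 of 12 did so in each. The kinase genes msn and bsk, the latter the fly Jun kinase, had CA cold minus warm differences of 0.44 (SE 0.14) and 0.59 (SE 0.24), with limma adjusted p values of 0.417 and 0.580. The bsk array values were 7.53, 7.50 and 7.97 in the cold phase and 7.57, 6.35 and 7.30 in the warm phase, so the phases overlapped and the difference rested on CA 18 h, without which it was 0.23 (SE 0.15). At the step bsk differed by 0.75 (SE 0.32), by 0.27 without CA 18 h, and by 1.22 without CA 22 h. In the last setting, likewise chosen after seeing the data, CA 14 h faces CA 18 h alone, so no call is read from it. Without CA 18 h msn differed by 0.31. The receptor gene wgn differed by -0.35 (SE 0.13) at the step, or -0.39 without CA 18 h. Atf3, which like puc was in both this list and that of the further genes, differed there by -0.38, or -0.26 without CA 18 h. These kinases act through phosphorylation, which these arrays do not measure.

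For the ERK pathway, 10 of 16 genes were measured, 0 passed in limma, and the median CA difference was -0.15, against -0.01 over all probe sets. In the CA phases 4 of 10 had an unadjusted p under 0.05, 2 higher and 2 lower in the cold, against 8.15%, and 3 of 10 without CA 18 h, against 4.64%. At the step it was 1 of 10, lower at 14 h, against 5.18%. The transcriptional repressor gene aop read 6.82, 6.71 and 6.90 in the cryophase, above its thermophase values of 6.22, 5.65 and 6.42, a separation found in 5.55% of probe sets. Its difference was 0.71 (SE 0.16, limma adjusted p = 0.268), or 0.49 without CA 18 h. The EGF receptor ligand gene spi differed by -0.35 (SE 0.11, limma adjusted p = 0.417) between the CA phases and by -0.44 (SE 0.12, limma adjusted p = 0.925) at the step, where the phosphatase gene Mkp3 differed by -0.26 (SE 0.13).

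For calcium and CREB signalling, the route to immediate-early genes in neurons, 13 of 21 genes were measured, 0 passed in limma, and the median CA difference was -0.01. An unadjusted p under 0.05 was found for 1 of 13 in the CA phases and 2 of 13 at the step, all with the first group lower, against 8.15% and 5.18%. The calcineurin subunit gene CanB2 differed by -0.19 (SE 0.07) and the calcium channel gene Ca-alpha1D by 0.23 (SE 0.12) between the CA phases, with limma adjusted p values of 0.571 and 0.643, and without CA 18 h they differed by -0.15 and 0.10. At the step the adenylyl cyclase gene rut differed by -0.57 (SE 0.18) and CrebB by -0.45 (SE 0.19), both with a limma adjusted p of 0.925. The rut probe set had a mean signal of 11.56, near the 11.40 of the photoreceptor marker Arr1. Whether it reads rut alone was not tested, and the 2 of 13 at the step include rut. Among 12 of 13 nuclear receptors measured beside Hr38, 0 passed in limma. Of these 5 of 12 had an unadjusted p under 0.05 in the CA phases, 4 higher and 1 lower in the cold, against 8.15%, and 3 of 12 did without CA 18 h, against 4.64%, and 0 of 12 at the step. The 4 include Hr39, which had a mean signal of 2.75, a level not above background. The genes ftz-f1 and Hnf4 had the smallest p in the CA phases, at 0.35 (SE 0.11) and 0.33 (SE 0.11). Of the serum response factor group 2 of 3 genes were measured, bs at 0.17 (SE 0.14) and Mrtf at -0.02 (SE 0.09), and 0 passed in limma, with 0 of 2 at an unadjusted p under 0.05 in the CA phases or at the step. Without CA 18 h these were 0.024 and 0.053.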

How the data were processed

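The deposited log2 values were made by the authors with RMA (version not given in the sources used here), which covers background correction, quantile normalization and median-polish summary. They were used without further normalization, after 44 of 14010 probe sets, the controls, had been set aside. Genes were named from the platform's annotation, with symbols updated by gene identifier from a RefSeq table (assembly Release 6 plus ISO1 MT) used only for names. The 5 genes, the lists and the tests were chosen with earlier results of these data known.

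The 4 groups of 3 arrays were compared in a single limma fit (version 3.58.1, R 4.3.3) over all 12 arrays, two-sided, with Benjamini-Hochberg adjustment over all probe sets. For the steps, the 14-h or the 2-h array of each day formed a group of its own, assumed to vary like the rest. Where 1 probe set had to stand for a gene, that with the highest mean was taken. Correlations between genes were tested with 100000 permutations (two-sided). The rule for naming other genes took the 3 most correlated with each of the 5 (Hr38 is left out, as it was not above background) and the 2 with the smallest p per list, for the CA phases and the CA step. Alternatives were median centring, a filter on dim probe sets, a trended prior, array weights, other reference arrays, the clock hour as a block and leaving out each array. Fits were tested on simulated data. The number of arrays limits the precision. Promoter motifs and sequences were not analysed here.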

Additional observations from a re-analysis of the deposited data

How the results depend on the processing

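Over the 40 differences of sr, CG14186, kay and Jra, 682 values were computed under other settings, of which 0 passed the adjusted threshold and 40 had the other sign. The cause of these moves was not tested.

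Counts of probe sets past the threshold moved as follows. The CA phases gave 1, and 3 with array weights, 14 without the 2-h and 14-h arrays of both days, 0 with the CA arrays alone and 3 for the 18 °C arrays against all 9 arrays at 25 °C. The cold phases of CA and AA gave 0, and 1 with array weights or without the 2-h and 14-h arrays. The warm phases of CA and AA gave 2, and 8 with array weights, 0 without the 2-h and 14-h arrays and 0 with the clock hour as a replicate block. The AA 14-h contrast gave 1, and 0 without dim probe sets. The block changed no other count and no call of the 5 genes. Deviations of arrays of the same hour on the 2 days correlated from -0.23 to 0.25 over probe sets, so the days were not taken as paired.

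Leaving out 1 array at a time gave counts of 0 to 9 for the CA phases, 0 to 5 for the AA phases, 0 to 2 for the difference between them, 0 to 1 for the cold phases of the days and 0 to 10 for the warm phases. It gave 0 to 140 for the CA 14-h contrast, 0 to 1 for the AA 14-h contrast, 0 to 4 for their difference and 0 to 779 for the later warm against the cold phase of CA, the 140, 4 and 779 without the CA 22-h array. Without CA 22 h the later warm phase was CA 18 h alone, the array that stood apart. The count at the smallest periodicity p in CA was 234, with a range of 163 to 354, the highest without the CA 22-h array, and for the first array after 0 h the count was 0 to 1.

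Signs turned, near 0, for kay between the CA phases (0.031 without the 2-h and 14-h arrays, 0.041 for 18 °C against all arrays at 25 °C), for Jra between the AA phases (-0.011 with array weights, -0.024 without the 2-h and 14-h arrays), for Jra with array weights in the difference between days (0.0082) and between the cold phases (0.019), and for CG14186 at CA 14 h against all 11 other arrays (0.023). The dimmer kay probe set gave 0.035 in the CA phases, -0.017 in the AA phases, 0.053 in their difference, 0.11 between the cold phases, -0.015 at AA 14 h and -0.022 for the later warm against the cold phase.

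With 1 array left out, the CA phase difference ran from -0.043 to 0.25 for CG14186, -0.20 to 0.17 for kay and -0.23 to 0.013 for Jra, and the AA phase difference from -0.0042 to 0.44 for kay and -0.036 to 0.070 for Jra. Between the cold phases the range was -0.12 to 0.090 for CG14186, -0.23 to 0.22 for kay and -0.083 to 0.025 for Jra, and between the warm phases -0.025 to 0.22 for Jra. The CA 14-h contrast ran from -0.13 to 0.062 for sr, -0.35 to 0.24 for CG14186, -0.55 to 0.20 for kay and -0.093 to 0.40 for Jra, and its difference from AA from -0.037 to 0.15, -0.54 to 0.054, -0.60 to 0.15 and -0.13 to 0.36 for the same genes. The later warm minus cold difference ran from -0.37 to 0.22 for CG14186, -0.27 to 0.48 for kay and -0.21 to 0.28 for Jra, and the CA 2-h contrast from -0.034 to 0.048 for CG14186. For sr, with no turn of sign, the later warm minus cold difference of -0.21 ran from -0.31 without CA 22 h to -0.12 without CA 18 h, the AA phase difference of -0.14 from -0.21 to -0.057 and the cold-phase difference of 0.09 from 0.012 to 0.17, these ends from leaving out AA 2 h or AA 6 h. Without CA 18 h, a setting added after seeing the data, Mrtf turned sign between the CA phases (0.053). Every end of the CA 14-h and later warm ranges came from leaving out CA 18 h or CA 22 h. With 1 array per hour, changes of the sizes of these ranges were not detectable.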
